A study of Mus musculus with 6 samples.

Results

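The genes described here encode 7 enzymes of heme synthesis, taken by mouse symbol and given in pathway order: Alas2, Alad, Uros, Urod, Cpox, Ppox and Fech. They do not cover every step of the pathway, and all shares and sums over the enzymes are over these 7 genes only. They are 7 of the 27179 genes listed in each deposited count table, and all 7 were found. The study measured polyadenylated RNA of circulating red cells, purified from heart blood, in 3 males of genotype Nxf1+/C587R and 3 wild-type (Nxf1+/+) littermate males, all on a BalB/c background. The mutants carry 1 copy of the missense allele C587R of Nxf1, the gene of the main export receptor for messenger RNA. The labels name neither a treatment nor an age. Each library came from 1 animal, and each of 3 batch numbers was shared by 1 mutant and 1 wild-type library.

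Heme is built partly in the mitochondrion and partly in the cytosol. Mitochondrial 5-aminolevulinate synthase condenses glycine with succinyl-CoA, the cytosol turns its product into coproporphyrinogen, and the last reactions return to the mitochondrion, where ferrochelatase inserts iron into protoporphyrin IX. Red cell precursors use the X-linked synthase gene Alas2, while other tissues use Alas1. Reticulocytes, the youngest circulating red cells, have no nucleus but still hold mitochondria and messenger RNA and go on making heme and globin until both are lost.

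Alas2 carries an iron-responsive element in its 5′ untranslated region, a short hairpin that iron regulatory proteins bind when iron is scarce, which blocks translation. It is shown because Alas2 was the dominant transcript among these enzymes and this element tells it apart from the others. The site lies in exon 1 of the GENCODE M21 transcript Alas2-202 at chrX:150547460-150547485 of mm10, on the plus strand, 5′ to 3′, with the loop in capitals.
Alas2 iron-responsive element: ggttcgtcctCAGTGCagggcaacag
The pattern searched was CAGTGN closed by 5 base pairs (Watson-Crick or G with T) in the first 100 bases of protein-coding transcripts, on the transcript strand. It was present in 0.279% of 21877 genes and in 0 of the other enzymes described here.

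Upstream sequence is shown for Alas2, the most abundant enzyme transcript, and for Urod, the one whose direction in the mutants differed most from it. Both windows come from the RefSeq promoter table for GRCm38.p6, are printed 5′ to 3′ on the gene's strand, and exclude exons annotated in GENCODE M21. The last bases of the Urod window, 116994414 to 116994436, lie within the RefSeq span of Urod. Capitals mark GATA motifs (NGATAN with A or T first and A or G last, on either strand), the kind of site that the erythroid factor Gata1 binds.
Alas2 promoter, chrX:150547167-150547374, plus strand: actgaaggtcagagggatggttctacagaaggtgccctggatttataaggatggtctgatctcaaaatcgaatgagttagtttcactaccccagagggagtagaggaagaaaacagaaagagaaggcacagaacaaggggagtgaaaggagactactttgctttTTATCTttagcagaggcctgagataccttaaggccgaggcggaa
Urod promoter, chr4:116994414-116994663, minus strand: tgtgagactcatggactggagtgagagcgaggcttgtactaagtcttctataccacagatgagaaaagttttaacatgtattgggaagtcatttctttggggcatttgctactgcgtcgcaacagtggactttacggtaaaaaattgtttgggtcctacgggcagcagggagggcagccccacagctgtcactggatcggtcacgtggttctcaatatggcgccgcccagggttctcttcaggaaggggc
The Alas2 window held 1 GATA motif and the Urod window 0. The table held 8 windows for 6 of the enzymes. In the 250 bases before the start site, 3 of the 8 windows had a GATA motif (1 each of Alas2, Cpox and Uros), against 26.5% of 32851 windows. The CACCC motif, searched on both strands and overlapping no GATA motif in these windows, was present in 3 of the 8 (1 each of Alas2, Alad and Cpox), against 52.0% of all windows. Its matches for Alas2 lie nearer the start site than the stretch printed, which holds 0.

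The libraries held 14636739 to 15790336 counts each, of which globin genes took 88.1% to 89.3%, leaving 1627997 to 1877571 counts for all other genes. All 11 matched markers of red cells were seen. Nxf1 itself had 9, 7 and 11 counts in the mutants, against 15, 10 and 20 in wild type, and such counts do not tell the alleles apart. Markers of other cells were present at low counts, with no marker of these lists at 0 over all libraries. The 20 hepatocyte markers summed to 2050 to 4506 counts in the mutants, against 14 to 94 in wild type, the 12 exocrine pancreas markers to 1 to 3 and 0 to 357 (357 in wild-type library 1), the 18 leukocyte markers to 926 to 1620 and 1480 to 1818, and the 10 platelet markers to 64 to 193 and 164 to 307. The 10 markers of immature red cells summed to 1148 to 1750 in the mutants, against 2205 to 3673 in wild type. The scaling factors from trimmed means (TMM) took values of 0.718, 0.779 and 1.06 in the mutants, against 1.23, 1.11 and 1.23 in wild type, so mutant library 3 stood apart from the other mutants.

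The transcripts of the 7 enzymes were extremely unequal. Alas2 (Entrez gene 11656, chromosome X, 150547417 to 150570622 in mm10), which encodes the first and rate-limiting enzyme of erythroid heme synthesis, had 393207, 385072 and 399273 counts in the mutants, against 418226, 411608 and 461931 in wild type. Every mutant library had fewer Alas2 counts than every wild-type library before any scaling. Alas2 took 23.9%, 23.5% and 24.5% of the counts outside globin in the mutants, against 24.04%, 25.1% and 24.6% in wild type, and these shares overlapped between the genotypes.

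Fech (Entrez gene 14151, chromosome 18, 64456542 to 64489098), which encodes ferrochelatase, was the other abundant transcript. It had 20290, 20572 and 22032 counts in the mutants, against 24060, 21308 and 25696 in wild type. The genotypes overlapped, since mutant library 3 exceeded wild-type library 2. Alas2 and Fech together held 99.93% to 99.97% of the counts of the 7 enzymes, and the other 5 enzymes summed to 134 to 224 counts per mutant library and 256 to 364 per wild-type library.

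The enzymes between these ends of the pathway were rare. Alad (Entrez gene 17025, chromosome 4, 62505984 to 62520063), the cytosolic enzyme that joins a pair of 5-aminolevulinate molecules into porphobilinogen, had 45, 57 and 46 counts in the mutants, against 39, 42 and 84 in wild type. The genotypes overlapped, with wild-type library 3 the highest. Uros (Entrez gene 22276, chromosome 7, 133686142 to 133710467), which closes the porphyrin ring as uroporphyrinogen III, had 2, 6 and 11 counts in the mutants, against 9, 10 and 18 in wild type. Mutant library 1 was below the limit that a count of 0 allows (3 counts).

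Urod (Entrez gene 22275, chromosome 4, 116989965 to 116994436), which removes carboxyl groups to give coproporphyrinogen, had 58, 93 and 125 counts in the mutants, against 164, 183 and 220 in wild type. All 3 mutants lay below all 3 wild types. Cpox (Entrez gene 12892, chromosome 16, 58670208 to 58680391), the mitochondrial oxidase of coproporphyrinogen, had 4, 9 and 7 counts in the mutants, against 10, 7 and 3 in wild type, too few to enter the test across genes. Ppox (Entrez gene 19044, chromosome 1, 171276991 to 171281193), which makes protoporphyrin IX, had 25, 25 and 35 counts in the mutants, against 34, 32 and 39 in wild type, and the genotypes overlapped.

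**Figure D1:**
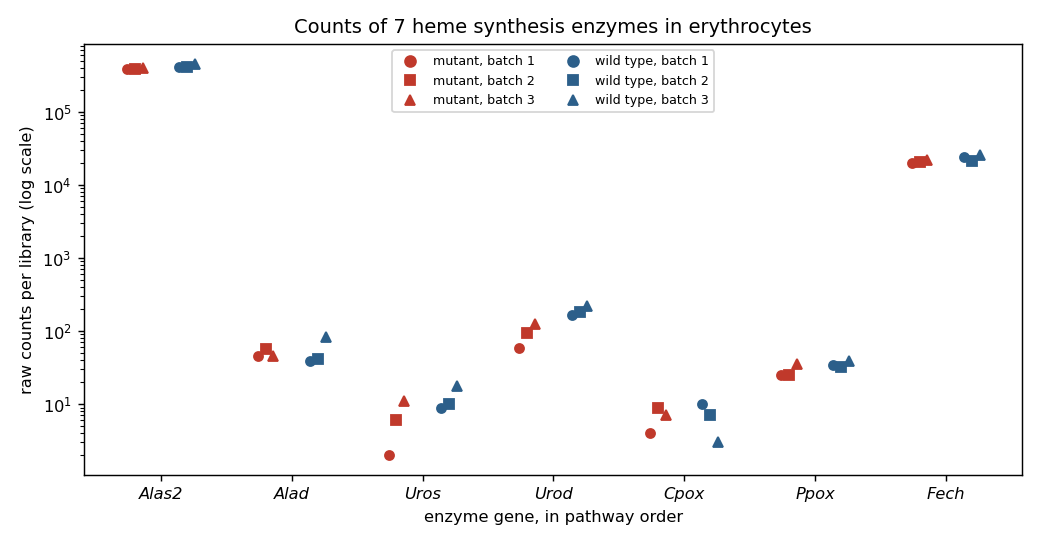
Raw counts per library (log axis) of the 7 enzyme genes in pathway order, each point 1 library, with mutants in red left of wild type in blue and marker shape giving the batch. Alas2 lies at 385072 to 461931 counts and Fech at 20290 to 25696, while the 5 enzymes between them lie at 2 to 220.

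Levels per length are given as TMM-scaled CPM per kilobase of exon. Such CPM are counts divided by the product of library total and TMM factor. They do not add up to the same total in each library, so they are not shares of an equal total. On this scale the order of levels was Alas2, Fech, Urod, Alad, Ppox, Uros and Cpox. Alas2 averaged 15904 ± 2633 CPM per kb in the mutants, against 11956 ± 799 in wild type, and Fech 577 ± 77.6 and 447 ± 9.77 (SD, n = 3 each). The level of Alas2 was 27.2 times that of Fech over the 6 libraries, with a range of 25.5 to 28.4. Fech in turn was 97.7 times Urod in the mutants, against 51.6 times Urod in wild type. Urod averaged 5.91 ± 1.27 CPM per kb in the mutants, against 8.66 ± 1.26 in wild type, above Alad in 6 of 6 libraries. Alad stood at 2.94 ± 0.685 CPM per kb in the mutants, against 2.21 ± 0.882 in wild type, and Ppox at 1.22 ± 0.0556 in the mutants, against 1.05 ± 0.0625 in wild type (SD, n = 3 each). Of the 6 pairs of neighbours in this order, 5 had ranges over all libraries that did not overlap. Uros and Cpox, at 0.101 to 0.512 and 0.0485 to 0.238 CPM per kb, did overlap.

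Some reads could belong to neighbouring genes, because the strand setting of the counts was not given in the sources used here. In GENCODE M21, exons of Alas2 share 311 bases with Apex2 on the opposite strand, those of Ppox 791 bases with B4galt3 and those of Cpox 204 bases with Gpr15. Apex2 had 0 to 2 counts per library, B4galt3 7 to 13 and Gpr15 0.

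Mutant and wild-type cells were compared for each enzyme with edgeR's quasi-likelihood test over 2823 genes. Of the 6 enzymes tested, 0 passed at an adjusted p under 0.05, where 7.05% of all genes tested did. DESeq2 and limma-voom also called 0 at an adjusted p under 0.05. At an unadjusted p under 0.05 edgeR had 3, Alas2, Urod and Fech, where 18.5% of all genes passed. Alas2 had 36121, 32462 and 25839 CPM in the mutants, against 22024, 25180 and 23780 in wild type on the TMM scale. The genotypes did not overlap, by a small margin at mutant library 3. The log2 fold change was 0.41 (SE 0.17, 95% interval 0.050 to 0.77, edgeR adjusted p = 0.1995), with within-batch differences of 0.71, 0.37 and 0.12.

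Fech, at the other end of the pathway, had 1864, 1734 and 1426 CPM in the mutants, against 1267, 1304 and 1323 in wild type on the TMM scale. The groups again did not overlap and mutant library 3 was again the lowest of the mutants. The log2 fold change was 0.37 (SE 0.16, 95% interval 0.039 to 0.70, edgeR adjusted p = 0.208). Without mutant library 3 both genes passed, Alas2 with 0.61 (edgeR adjusted p = 0.00208) and Fech with 0.55 (adjusted p = 0.00833), where 7.48% of the genes tested were called higher. They also passed without batch 3, with 0.62 and 0.56 (edgeR adjusted p = 0.00997 and 0.0304), where 6.99% were called higher. Left out in turn, the other 5 libraries gave 0 called enzymes.

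Urod went the other way. It had 5.33, 7.84 and 8.09 CPM in the mutants, against 8.64, 11.2 and 11.3 in wild type on the TMM scale, a log2 fold change of −0.54 (SE 0.21, 95% interval −0.99 to −0.10, edgeR adjusted p = 0.160). The value was lower in the mutant in all 3 batches, by −0.65, −0.49 and −0.46. Leaving out mutant library 1, which had the fewest Urod counts, moved the log2 fold change to −0.32 (adjusted p = 0.647). The 10 immature red cell markers summed to 1148, 1148 and 1750 counts in the mutants, against 2205, 3223 and 3673 in wild type. Most of that sum was Cd24a, a surface protein, with 842, 880 and 1212 counts in the mutants, against 1719, 2241 and 2467 in wild type. Of the 6 markers tested, 1 passed, Cd24a, which was lower (log2 fold change −0.62), where 30 of all 2823 genes tested were called lower. Of the other markers 4 were below 0 and Ccnb2, a cyclin, was at 0.17. The part of immature cells in the Urod value was not tested. In these bulk samples fewer cells of a type and less RNA per cell cannot be told apart.

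The remaining tested enzymes had wide intervals. Alad had a log2 fold change of 0.40 (95% interval −0.21 to 1.01, edgeR adjusted p = 0.535), Ppox 0.21 (−0.34 to 0.77, adjusted p = 0.763) and Uros −0.45 (−1.47 to 0.56, adjusted p = 0.716). The value for Alad was 0.19 without wild-type library 1, 0.78 without wild-type library 3 and 1.03 without batch 3 (edgeR adjusted p = 0.835, 0.235 and 0.0732). No difference was detectable for these at counts of 2 to 84 per library. Alad was not alike across batches, at 0.86, 0.79 and −0.47. Over the 7 enzymes on the TMM scale, 3 were higher without overlap (Alas2, Ppox and Fech, where 12.4% of genes tested were) and 1 was lower without overlap (Urod, where 11.1% were).

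The direction of 4 enzymes depended on the scaling. With total counts and no scaling factors, the log2 fold change of Alas2 was −0.10, that of Alad −0.12, that of Ppox −0.27 and that of Fech −0.14, while Uros and Urod stayed negative at −0.91 and −1.003. Urod then passed (edgeR adjusted p = 0.0253), 1 of 6 enzymes, where 8.68% of genes were called lower. Across all genes the median log2 fold change was −0.53 with total counts and −0.06 with TMM, and the share of called genes that were higher was 31.9% with total counts and 84.9% with TMM. Relative to that median, the values were nearly the same under both. Scaling factors shift all genes by nearly the same amount, so this follows by arithmetic and is no separate check. Alas2 stood at 0.47 with TMM and 0.43 with total counts. In that order the values were 0.42 and 0.39 for Fech, 0.45 and 0.41 for Alad, 0.27 and 0.26 for Ppox, −0.40 and −0.38 for Uros, and −0.49 and −0.47 for Urod. On shares of total counts 0 enzymes were higher without overlap (5.31% of genes tested) and 1, Urod, was lower without overlap (31.5%).

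**Figure D2:**
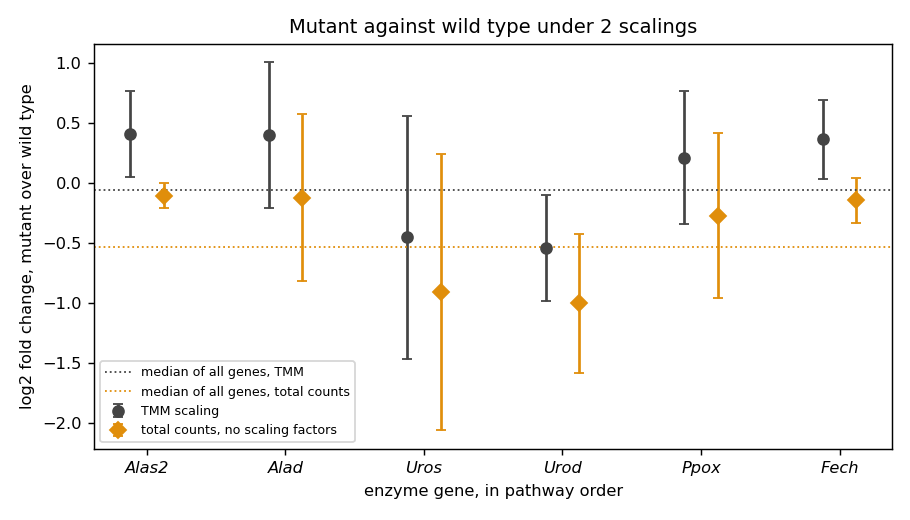
Log2 fold change of mutant over wild type with 95% intervals from edgeR for the 6 enzymes tested, with TMM scaling (grey circles) and with total counts (orange diamonds), and the median of all genes under each as dotted lines. Under each scaling Alas2 and Fech lie above the median of that scaling and Urod below it, which are not separate checks. With TMM 0 of the 6 passed after adjustment.

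Ratios within a library need no scaling factor. The 7 enzymes took 2.73%, 2.66% and 2.88% of all counts in the mutants, against 2.86%, 2.94% and 3.09% in wild type, and the genotypes overlapped at mutant library 3 and wild-type library 1. The 95% Wilson interval was 2.65% to 2.67% for mutant library 2, the lowest, and 3.08% to 3.10% for wild-type library 3, the highest, covering counting error only. The mean share was 2.76% ± 0.112 in the mutants, against 2.96% ± 0.118 in wild type (SD, n = 3 each), 7.01% below wild type and lower in the mutant in all 3 batches. Of the counts outside globin the enzymes took 25.3% ± 0.568 in the mutants, against 25.9% ± 0.489 in wild type, 2.61% below. The difference of −0.208 points in the share of all counts did not pass an exact two-sided permutation test (p = 0.2, adjusted over 3 such tests 0.3). With 3 against 3 libraries the smallest p is 0.1.

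Alas2 was also set against globin, the protein chains that its heme fills. It had 29.1, 28.3 and 30.7 counts per 1000 alpha and beta globin counts in the mutants, against 30.4, 31.5 and 33.2 in wild type. The groups overlapped at mutant library 3 and wild-type library 1. The means of 29.4 ± 1.22 and 31.7 ± 1.41 (SD, n = 3 each) differed by −2.35 (exact permutation p = 0.2, adjusted 0.3), and the mutant was lower in all 3 batches. Against the beta globin genes alone the values were 65.6, 63.5 and 69.3 in the mutants, against 72.4, 72.5 and 79.1 in wild type. These did not overlap (exact permutation p = 0.1). Against the alpha globin genes alone they were 52.2, 51.1 and 55.1 and 52.4, 55.7 and 57.2, with overlap (exact permutation p = 0.2).

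There were 51.6, 53.4 and 55.2 Fech counts per 1000 Alas2 counts in the mutants, against 57.5, 51.8 and 55.6 in wild type. These ranges overlapped, with wild-type library 1 the highest. Alas2 made up 94.9% ± 0.171 of the enzyme counts in the mutants, against 94.7% ± 0.263 in wild type (SD, n = 3 each; exact permutation p = 0.4, adjusted 0.4), a share so near its ceiling that it moves little with Fech. The difference of 0.161 points was positive in 2 of 3 batches and turned to −0.0367 without batch 1. There were 2.86, 4.52 and 5.67 Urod counts per 1000 Fech counts in the mutants, against 6.82, 8.59 and 8.56 in wild type. These ranges did not overlap, and the mean of 4.35 in the mutants was 45.5% below that of 7.99 in wild type. This last pair of ratios was chosen after the counts were seen and is given with no test.

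**Figure D3:**
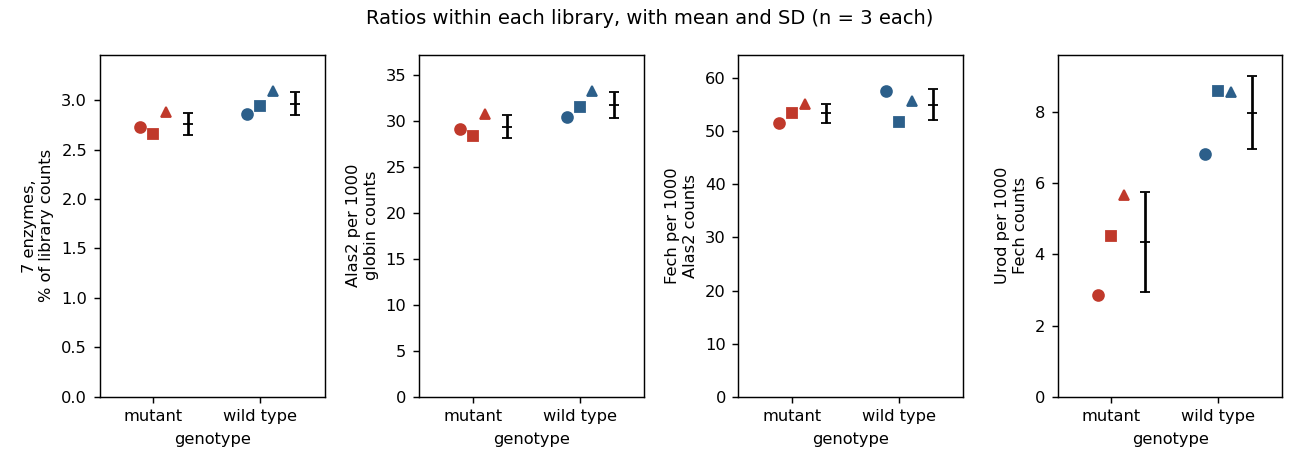
The 4 ratios shown are each taken within a library, each point 1 library (red mutant left, blue wild type right, shape by batch), with mean and SD beside them (n = 3 each) and axes from 0. The share of the 7 enzymes, Alas2 per 1000 globin counts and Fech per 1000 Alas2 counts overlap between genotypes, while Urod per 1000 Fech counts lies at 2.86 to 5.67 in the mutants, against 6.82 to 8.59 in wild type.

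The likeness of Alas2 and Fech showed in their profiles over the 6 libraries. The root mean square difference between centred log2 CPM profiles was 0.057 between Alas2 and Fech, the smallest of the 15 pairs of tested enzymes. It was 0.58 between Alas2 and Urod and 0.29 between Urod and Uros. Alas2 and Fech had at least 20290 counts per library, and the other tested enzymes 2 to 220. Counting error alone widens distances at such low counts, so this ranking cannot separate likeness from depth. Among 440 named genes with a mean of at least 5 CPM, those nearest to Alas2 were Slc25a39 (0.027), a mitochondrial carrier that imports glutathione, Marchf2 (0.030), a ubiquitin ligase, and Bag1 (0.037), a co-chaperone of Hsp70. Nearest to Fech were Psme3 (0.029), an activator of the proteasome, Pnpla2 (0.036), a triglyceride lipase, and Epn1 (0.041), an endocytic adaptor. The median distance over these genes was 0.29 from Alas2 and 0.27 from Fech.

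Urod, at 58 to 220 counts per library, had other neighbours, at larger distances. They were Sptb (0.12), the beta spectrin of the red cell skeleton, Dhrs11 (0.13), a dehydrogenase, and Txnrd2 (0.14), the mitochondrial thioredoxin reductase, against a median of 0.45. All these likenesses rest on 6 libraries that share scaling factors, and mutant libraries 1 and 2, which had the lowest TMM factors, had the highest values of both Alas2 and Fech. On total counts, which use no factors, the direction of both was the other one, as given above.

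**Figure D4:**
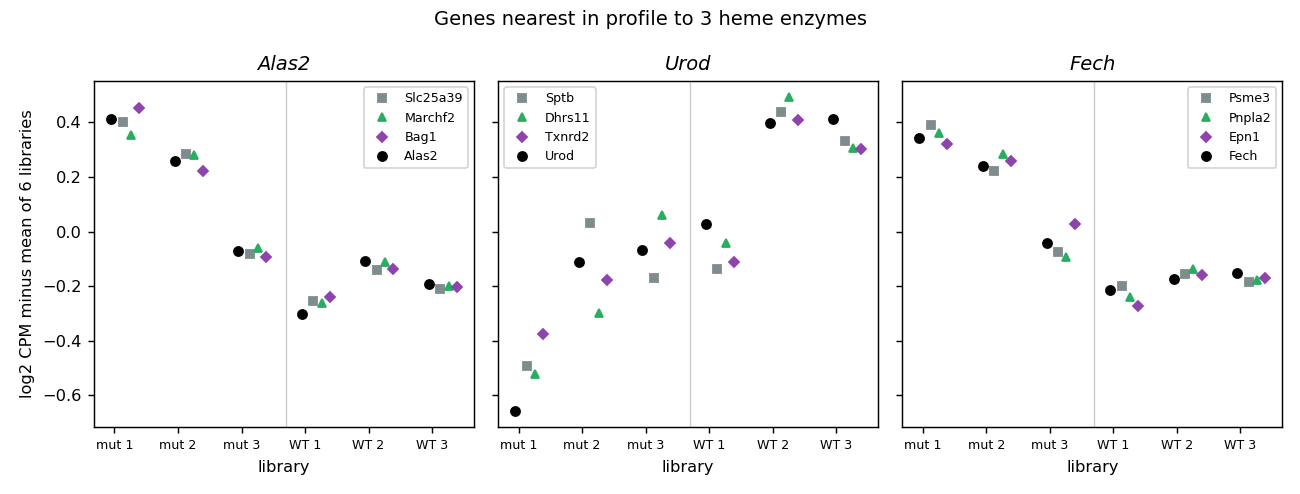
Log2 CPM minus the mean of the 6 libraries for Alas2, Urod and Fech (black) and the 3 genes nearest to each in profile, with mutant libraries left of wild type. Alas2 and Fech are high in mutant libraries 1 and 2 and near their mean in mutant library 3, while Urod is lowest in mutant library 1 and highest in wild-type libraries 2 and 3.

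Alas1, the synthase of other tissues, was close to absent. It had 0, 4 and 3 counts in the mutants, against 8, 2 and 4 in wild type, 7 and 14 in sum, beside 1177552 and 1291765 for Alas2. It was too rare to be tested. The hepatocyte markers, from a tissue that uses Alas1, stood at 2050, 4506 and 2566 counts in these mutants and 94, 20 and 14 in wild type. With that list removed before scaling, Alas2 had a log2 fold change of 0.41, Urod −0.54 and Fech 0.37, and 0 enzymes passed.

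Partner genes of the pathway were counted over 3 lists with 41 entries, of which 21 genes were tested. With TMM 0 of the 21 passed edgeR, beside 7.05% of all genes. At an unadjusted p under 0.05 edgeR had 7, beside 18.5% of all genes. At an adjusted p under 0.05, 1 passed with DESeq2, which called 177 genes higher and 11 lower of 2823. With limma-voom 0 passed. The first list held 21 genes, mostly for mitochondrial transport of iron and heme precursors and for iron-sulfur clusters, with Alas1, Clpx, Clpp, Snx3 and Pgrmc1 among them. Of these 21, 10 were tested, with a median log2 fold change of 0.26 against −0.06 for all genes. Of these 10, 7 were above 0 and 3 below, Slc25a38, a mitochondrial glycine carrier, at −0.93 (edgeR adjusted p = 0.217), Abcb10, a mitochondrial transporter, at −0.47 (adjusted p = 0.616) and Fam210b, a mitochondrial protein of erythroid iron use, at −0.45 (adjusted p = 0.256), named after their values were seen. Slc25a39 had 2805 ± 468 CPM in the mutants, against 2103 ± 84.6 in wild type (SD, n = 3 each), a log2 fold change of 0.42 (edgeR adjusted p = 0.167). Isca1, an iron-sulfur assembly factor, had 475 ± 102 and 371 ± 10.5 CPM (0.36, adjusted p = 0.265). Slc25a37, mitoferrin 1, which carries iron into the mitochondria of red cell precursors, had 263 ± 47.7 and 184 ± 3.31 (0.51, adjusted p = 0.0681), and Iscu, the scaffold for iron-sulfur clusters, 71.7 ± 2.30 and 64.1 ± 10.995 (0.16, adjusted p = 0.692). Without mutant library 3, Slc25a39, Isca1 and Slc25a37 passed with 0.62, 0.60 and 0.73 (adjusted p = 0.00300, 0.00796 and 0.00215), as Alas2 and Fech did. In that setting 7.48% of the genes tested were called higher. With total counts 9 of the 10 were below 0 and Pgrmc1 was at 1.31. The median of the 10 was −0.25 against −0.53 for all genes.

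Pgrmc1, 1 of the 10 tested genes of that first list, is a heme-binding membrane protein that associates with ferrochelatase and is abundant in liver. It is named after its values were seen. It had 18, 56 and 19 counts in the mutants, against 21, 9 and 8 in wild type, and these counts overlapped. On the TMM scale the 1.65, 4.72 and 1.23 CPM of the mutants did not overlap the 1.11, 0.551 and 0.412 of wild type. Of all genes tested 12.4% were higher without overlap on that scale. Pgrmc1 missed the threshold (log2 fold change 1.84, edgeR adjusted p = 0.0875), but passed when batch entered the fit (1.75, adjusted p = 5.47e-05) and in DESeq2 (1.94, adjusted p = 0.00670). Mutant library 2, with the highest of these counts, also had the highest hepatocyte marker count, 4506, and the part of hepatocyte RNA was not tested.

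Of 12 genes for heme breakdown, export and sensing, 4 were tested and 0 passed, with a median log2 fold change of 0.08. Slc48a1, which carries heme across endosomal membranes, had 629 ± 87.8 CPM in the mutants, against 545 ± 38.7 in wild type (SD, n = 3 each), a log2 fold change of 0.21 (edgeR adjusted p = 0.560). Blvrb, the biliverdin reductase of red cells, had −0.13 (adjusted p = 0.846), Eif2ak1, the heme-regulated kinase that halts translation, −0.05 (adjusted p = 0.960), and Bach1, a heme-sensing repressor, 0.27 (adjusted p = 0.798). Hmox1, the inducible heme oxygenase, was too rare to be tested, and Flvcr2 had 0 counts in all libraries.

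Of 8 erythroid regulators, 7 were tested and 0 passed, with a median log2 fold change of −0.04. Lmo2, an adaptor of the Tal1 complex, had 25.7 ± 5.37 CPM in the mutants, against 24.7 ± 1.50 in wild type (SD, n = 3 each; log2 fold change 0.06, edgeR adjusted p = 0.912). Nfe2, a globin gene activator, had −0.04 (adjusted p = 0.965). Zfpm1, the cofactor of Gata1 also called Fog1, had 20, 19 and 30 counts in the mutants, against 48, 46 and 57 in wild type (−0.61, adjusted p = 0.208), and Tal1 15, 12 and 16 against 24, 31 and 41 (−0.63, adjusted p = 0.305). On the TMM scale Zfpm1 and Ldb1 were lower without overlap, beside 11.1% of genes, and Tal1 overlapped. Ldb1 (log2 fold change −0.51, edgeR adjusted p = 0.483) is named after its values were seen. With total counts Zfpm1, Tal1 and Fam210b were the 3 partner genes of 21 that passed, all lower, where 8.68% of all genes were called lower (−1.09, −1.12 and −0.91, adjusted p = 0.0391, 0.0492 and 0.0280).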

How the data were processed

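The authors deposited raw counts per gene, 1 table per library, with Entrez number, exon length and count, per the file headers. The submitters' processing notes name CASAVA 1.8.2, Subread, featureCounts and mm10; annotation and strand setting are not given in the sources used here. Symbols and positions came from RefSeq GRCm38.p6. Members and lists were chosen with earlier results of these data known.

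The main test was edgeR 4.0.16 (R 4.3.3): robust quasi-likelihood F test with genotype as sole covariate, TMM factors, filterByExpr on the groups, and Benjamini-Hochberg adjustment over the 2823 genes tested. CPM are counts divided by the product of a library's total over those genes and its TMM factor, multiplied by the same constant in all libraries. An SE is the absolute log2 fold change over the root of F. Within-batch log2 differences add 0.5 CPM. Profiles use log2 CPM with a prior count of 2. The fits were tested on simulated data. Alternatives were total counts, RLE scaling, removal of globin genes or the hepatocyte list, other filters, DESeq2 1.42.0, limma-voom (limma 3.58.1), batch as a term, and leaving out libraries or batches.

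The label's batch number pairs the libraries; same-batch deviations correlated at −0.116, −0.0858 and −0.0443 across genes. Named were all members, Alas1, the 4 partner genes per list called or highest, and the 3 nearest profiles per member of at least 5 CPM; others are said to be named after their values were seen.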

Additional observations from a re-analysis of the deposited data

How the results depend on the processing

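Of the 6 enzymes 0 passed in the main comparison and in 15 of 18 alternatives. The number was 1 with total counts (Urod), 2 without batch 3 (Alas2 and Fech), and 0 to 2 when 1 library was left out, 2 being without mutant library 3. With batch as a term (the paired fit) it was 0. With total counts the log2 fold changes of Alas2, Alad, Ppox and Fech turned to −0.10, −0.12, −0.27 and −0.14, and the median of all genes moved to −0.53. Urod was negative in all 18 alternatives (−1.003 to −0.32, edgeR, DESeq2 or limma adjusted p 0.0253 to 0.647), and so was Uros in the 16 where it was tested (−0.91 to −0.067).

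Of the partner genes 0 passed in the main comparison. The number was 3 with total counts, where 115 of 2823 genes tested were called higher and 245 lower. It was 2 with no filter on low counts (382 higher and 82 lower of 16396 genes) and 1 with DESeq2 (177 and 11 of 2823). With batch as a term it was 1 (195 and 59 of 2823) and without batch 3 it was 3 (198 and 3 of 2831). It was 0 to 5 when 1 library was left out, 5 being without mutant library 3 (244 and 8 of 3263). The difference in the share of all 7 enzymes kept its sign in 12 of 12 alternatives, and so did Alas2 per 1000 globin counts. When 1 library was left out the values were −0.270 to −0.144 points and −3.02 to −1.60. The means within batches, −0.208 and −2.35, are counted among the 12. They equal the main values by arithmetic, since each batch held 1 library per genotype, and are no separate check. Alas2 dominates the enzyme counts and globin the library totals, so these ratios are nearly the same quantity. The share of Alas2 among the enzymes differed by 0.05004 to 0.306 points when 1 library was left out, by 0.161 within batches (again the main value), and by −0.0367 without batch 1. The cause of this last change was not tested. Uros and Cpox, with 56 and 40 counts over all libraries, were limited by depth.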
